A study of Homo sapiens with 12 samples.

Results

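The genes described here encode the NF-κB transcription factors and the proteins that hold them in check, in HUDEP-2 cells, a human erythroid precursor line immortalised from umbilical cord blood. The set was chosen by name and holds 10 of the 54628 genes in the count table. It comprises the Rel subunits RELA, RELB, REL, NFKB1 and NFKB2, the inhibitors NFKBIA, NFKBIE and TNFAIP3, and the nuclear IκB proteins NFKBIZ and BCL3. All 10 passed the filter on low counts, which kept 15492 genes for testing.

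RNA-seq had been carried out on 12 libraries, in 4 groups with 3 replicates per group. All cells carried a lentivirus that expresses a catalytically dead Cas9 fused to the KRAB repressor and GFP, and were sorted for GFP as a mixed population and not as a clone. The guide was either scrambled (sgControl) or directed this repressor to an element near EGR1 (sgEGR1). The cells had been expanded with SCF, EPO, dexamethasone and doxycycline, were starved for 5 h in medium listed with antibiotics and albumin only, and were then given PBS or 50 ng/mL of SCF, the ligand of the Kit receptor, for 1 h. The groups are therefore sgControl PBS, sgControl SCF, sgEGR1 PBS and sgEGR1 SCF. Dead Cas9-KRAB and the immortalising transgenes were common to all of them, and there was no group without the repressor. The methods call the replicates biological without saying whether they were separate infections, so p-values measure the spread between these libraries.

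In resting cells, dimers of Rel subunits are kept in the cytoplasm by IκB proteins. Signals from receptors activate the IκB kinase complex, IκB is degraded, and the freed dimers enter the nucleus and switch on genes that include their own inhibitors. NFKBIA and TNFAIP3 are classical examples of such inhibitors, which close a negative feedback loop within the first hours of a response. In blood cells the pathway is best known from lymphocytes and myeloid cells, where it drives inflammatory and survival genes.

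Among these 10 genes, TNFAIP3 was the one called for SCF by edgeR, and it rose in both genotypes, 1.66-fold in sgControl cells and 1.73-fold in sgEGR1 cells. It encodes A20, a ubiquitin-editing enzyme that shuts off signalling upstream of the IκB kinase. The 5 Rel subunits had SCF to PBS ratios between 0.927 and 1.10 in either genotype, and none of them passed this test. With a term for replicate 1, RELA was called on average over both genotypes (edgeR adjusted p = 0.0427), beside 2868 of all 15492 genes. NFKBIE, which encodes IκBε, and the nuclear IκB gene BCL3 were not called, but their calls depended on the fit. On average over both genotypes, DESeq2 called NFKBIE (adjusted p = 0.0423), and edgeR with the replicate number as a block called NFKBIE (0.0208) and BCL3 (0.00583). The block called 2799 of all 15492 genes on average, against 1399 without it. No member passed the edgeR test between sgEGR1 and sgControl, which called 0 of all 15492 genes after PBS and after SCF. EGR1 itself was not called.

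Sequences around the start sites were read from RefSeq promoter windows (GRCh38.p14), which run from 250 bases before to 50 bases after a start. Windows were found for 8 of the 10 genes, 13 windows in all, and NFKBIE and RELB had none in the table used. The windows were searched on both strands for the κB motif, the binding consensus of Rel dimers. It was present in 9 of the 13 windows, against 11.3% of all 35116 windows. These windows belonged to 7 of the 8 genes, and RELA was the gene without a match. The EGR-like motif GCGTGGG lay in 2 of the 13 windows, in the genes REL and NFKBIZ, against 6.98% of all windows. The AP-1 motif TGANTCA was found in none of the 13 windows, against 7.71% of all. The CArG box of serum response factor was also found in none, against 1.29%. A match is a stretch of letters and was not tested for binding. The TNFAIP3 window is shown whole, because this gene carries the SCF response, and the next lines give the shorter surroundings of the κB matches of the other genes near their starts. Capitals mark the κB matches, and each sequence is written 5′ to 3′ on the strand of its gene. Positions count from the RefSeq start site around which the window was drawn. This site can differ from the gene start in the coordinates given further below, which are from GENCODE v44.
TNFAIP3 promoter window (chr6:137867009-137867308, plus strand): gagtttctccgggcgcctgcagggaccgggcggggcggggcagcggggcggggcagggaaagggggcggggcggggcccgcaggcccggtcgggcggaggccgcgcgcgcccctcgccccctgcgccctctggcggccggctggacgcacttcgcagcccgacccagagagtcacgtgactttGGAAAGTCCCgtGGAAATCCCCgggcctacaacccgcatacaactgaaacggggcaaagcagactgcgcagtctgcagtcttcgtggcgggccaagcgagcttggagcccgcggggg
NFKBIA (chr14:35404811-35404840, minus strand): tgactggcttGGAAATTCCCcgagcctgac
NFKBIZ (chr3:101827757-101827786, plus strand): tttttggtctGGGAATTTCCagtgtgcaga
BCL3 (chr19:44748700-44748729, plus strand): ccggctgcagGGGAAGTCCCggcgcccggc
NFKB1 (chr4:102501300-102501329, plus strand): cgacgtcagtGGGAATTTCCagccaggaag
NFKB2 (chr10:102394461-102394519, plus strand): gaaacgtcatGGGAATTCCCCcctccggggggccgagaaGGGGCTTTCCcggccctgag
REL (chr2:60881517-60881547, plus strand): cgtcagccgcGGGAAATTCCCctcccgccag

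In TNFAIP3 a pair of κB matches lay side by side, the first from position -67 to -58 and the second from -55 to -46. The single match of NFKBIA lay from -81 to -72, and those of NFKB1 and REL ended at -40 and -37. NFKB2 had matches in 2 of its 3 windows and NFKBIZ in both of its windows, and the lines show the more upstream of the windows with matches. The match of BCL3 lay from 3 to 12 bases after the RefSeq start site of its window.

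Library totals ranged from 23.5 to 32.04 megacounts. A level is given in CPM, counts per megacount of a library's total after TMM scaling, and a count of 3, taken as the limit of detection, is worth 0.0936 to 0.128 CPM. This limit covers counting error only, while the SEs and 95% intervals of fold changes come from the edgeR fits and include the spread between libraries. In sgControl cells all SCF libraries (30.0 to 31.6 megacounts) were deeper than all PBS libraries (25.8 to 27.3 megacounts), and the part of depth in the results was not tested. Replicate 1 of each group stood apart: with a term for it, edgeR called 4116 genes (26.6%) between replicate 1 and the others. Among the members this set apart BCL3 alone, with a mean of 9.27 CPM in replicate 1 libraries and 6.57 CPM in the others (adjusted p = 0.000604). EGR1, the gene near the targeted element, stood at 10.9, 5.99 and 7.45 CPM in sgControl PBS and at 2.04, 1.12 and 0.977 CPM in sgEGR1 PBS. After SCF it reached 208, 239 and 171 CPM in sgControl cells but 40.4, 57.4 and 204 CPM in sgEGR1 cells, so that the library labelled sgEGR1 SCF replicate 3 lay inside the sgControl range. The tests between genotypes did not call EGR1 (edgeR adjusted p = 0.999 after PBS and 1 after SCF). The 12 erythroid markers all passed the filter, with HBB at 14855 CPM and KIT at 512 CPM on average. HBG1 varied most widely, from 0 to 166 CPM in a library. Their summed level was 26141 to 30039 CPM in sgControl PBS, 25279 to 28776 CPM in sgControl SCF, 27747 to 28473 CPM in sgEGR1 PBS and 26544 to 26696 CPM in sgEGR1 SCF. Among them 1, EPOR, was called lower after SCF on average over both genotypes, and the part of such shifts in the results was not tested. Of the lymphocyte markers, CD3E, CD2, MS4A1 and GNLY had no count in any library, and CD79A, CD3D and NKG7 did not exceed 0.440, 0.157 and 0.0942 CPM. ITGAM, S100A8 and S100A9 were likewise at 0 of the 8 monocyte and granulocyte markers, whose sum of 8.14 to 10.4 CPM came from CD68, at 7.79 to 10.4 CPM. The platelet genes PF4, PPBP and GP9 were at 0, while the megakaryocyte gene ITGA2B reached up to 35.1 CPM.

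Levels of different genes were compared per kilobase of the exons of each gene (GENCODE v44, GRCh38, union of all exons). RELA, the p65 subunit that activates transcription, had the highest level in each of the 4 groups, at 12.4 ± 0.351 CPM per kb (SD, n = 3) in sgControl PBS. NFKBIA, the main cytoplasmic inhibitor, followed at 3.57 ± 0.0772, and did not overlap RELA in any group. NFKB2, NFKB1 and NFKBIE came next, at 3.04 ± 0.274, 2.60 ± 0.0569 and 2.53 ± 0.177 CPM per kb. NFKB1 and NFKBIE overlapped between libraries, as did NFKBIE and BCL3 (1.87 ± 0.516), and BCL3 and REL (1.82 ± 0.136). RELB reached 1.19 ± 0.366 and TNFAIP3 0.754 ± 0.0182 CPM per kb, which placed TNFAIP3 ninth of the 10 before SCF. NFKBIZ was lowest in every group, at 0.310 ± 0.0270 CPM per kb in sgControl PBS. After SCF the libraries of TNFAIP3, at 1.25 ± 0.0975 CPM per kb in sgControl cells and 1.49 ± 0.125 in sgEGR1 cells, overlapped those of RELB. The exon union of NFKB1 (15.7 kb) and REL (17.1 kb) includes all annotated isoforms, so their levels per kb are low estimates where shorter isoforms prevail.

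**Figure D1:**
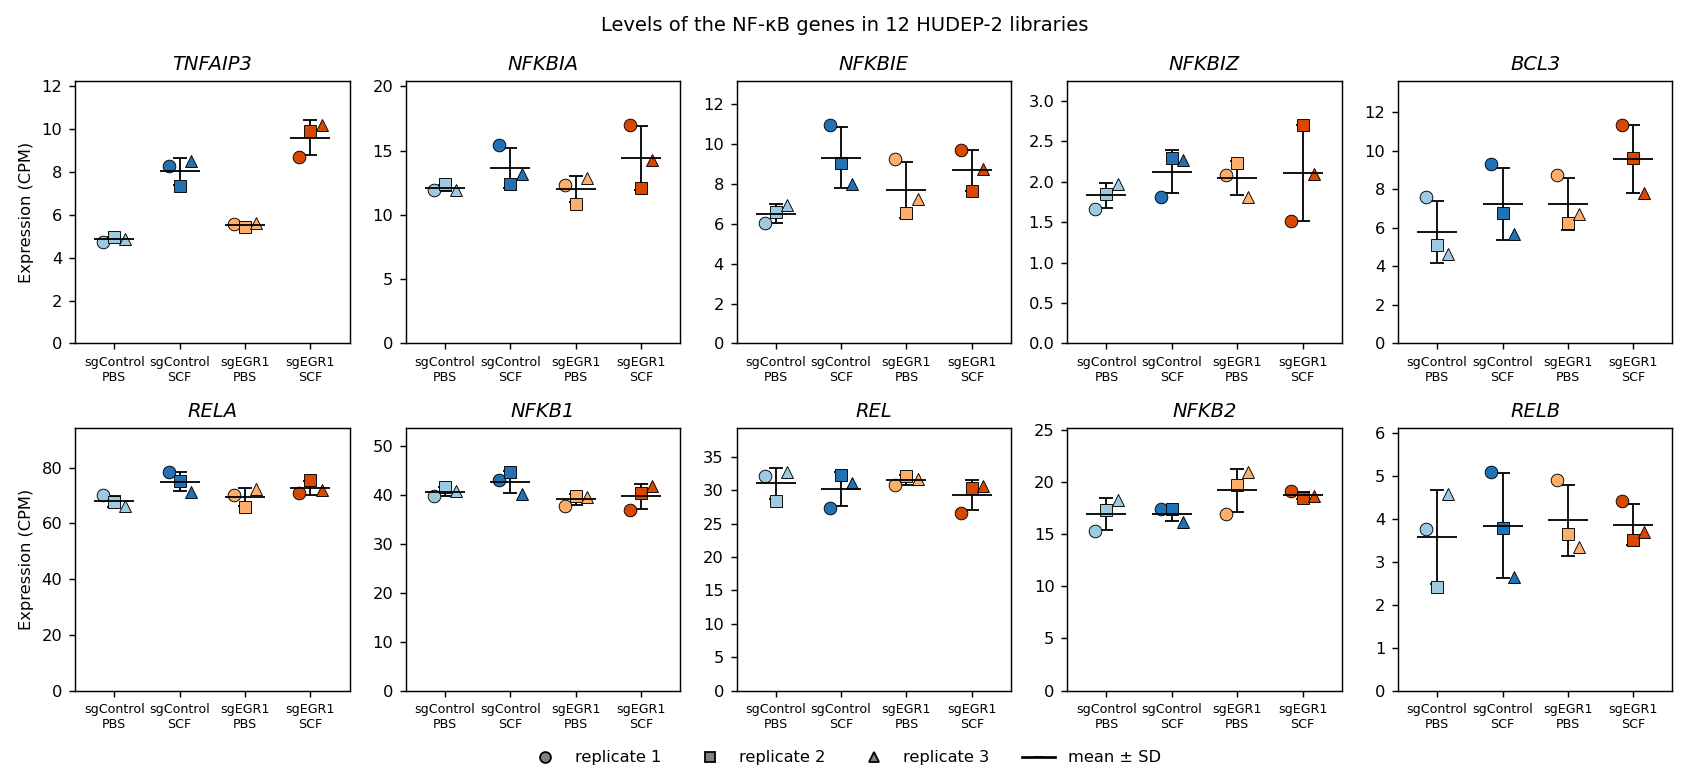
Expression (CPM, linear axis from 0) of the 10 NF-κB genes in each of the 12 libraries, by group, with circles, squares and triangles for replicates 1, 2 and 3 and black bars for the mean ± SD (n = 3). TNFAIP3 stands out by its SCF libraries, which lie between 7.33 and 10.2 CPM, above all 6 PBS libraries at 4.73 to 5.62 CPM.

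The first question was which members respond to SCF in sgControl cells, and whether they do so in sgEGR1 cells. TNFAIP3 (chromosome 6, 137867214 to 137883314, plus strand, GRCh38) was at 4.73, 4.96 and 4.89 CPM in the sgControl PBS libraries and at 8.29, 7.33 and 8.52 CPM in the sgControl SCF libraries. In sgEGR1 cells it was at 5.58, 5.44 and 5.62 CPM after PBS and at 8.70, 9.92 and 10.2 CPM after SCF. The SCF libraries lay above the PBS libraries with no overlap in either genotype, and the SD of the PBS groups was 0.117 and 0.0932 CPM. In sgControl cells the log2 fold change was 0.73 ± 0.103 (SE; 95% interval 0.50 to 0.95; edgeR quasi-likelihood adjusted p = 0.00265), the 75th smallest p of 15492 genes. In sgEGR1 cells it was 0.79 ± 0.102 (0.57 to 1.01; adjusted p = 0.00141), and averaged over both genotypes it was 0.76 ± 0.0722 (0.60 to 0.92; adjusted p = 5.07e-05).

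TNFAIP3 was thus 1 of 10 members called in each of these comparisons. Over all genes, 2.89% were called in sgControl cells, 2.59% in sgEGR1 cells and 9.03% on average over both. Called genes with higher expression after SCF made up 2.12%, 1.81% and 5.58% of all genes, and called genes with lower expression 0.775%, 0.788% and 3.45%, with no member among the latter. The call of TNFAIP3 held in all 19 alternative fits of each comparison, with adjusted p at most 0.0148 in sgControl cells, 0.0103 in sgEGR1 cells and 0.000451 on average. Without the sgEGR1 SCF library in which EGR1 was high, TNFAIP3 still rose in sgEGR1 cells by 0.75 (adjusted p = 0.00937). An exon of TNFAIP3 overlaps the antisense gene WAKMAR2, and strand use in counting was not stated.

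NFKBIA (chromosome 14, 35401079 to 35404749, minus strand) encodes IκBα, which binds RELA-containing dimers and is resynthesised after each round of activation. It was at 11.96, 12.4 and 11.9 CPM in sgControl PBS and at 15.4, 12.4 and 13.2 CPM in sgControl SCF. The sgEGR1 libraries were at 12.3, 10.8 and 12.8 CPM after PBS and at 17.0, 12.1 and 14.2 CPM after SCF. Replicate 1 was the highest SCF library in both genotypes, and the groups were separate by a narrow margin in sgControl cells and overlapped in sgEGR1 cells. The log2 fold change was 0.18 ± 0.125 in sgControl cells (adjusted p = 0.605), 0.27 ± 0.125 in sgEGR1 cells (0.347) and 0.22 ± 0.0883 on average (0.153), by edgeR. The interval of the average, 0.03 to 0.41, leaves room for changes of up to that size. NFKBIA thus did not pass the test, and its interval lay below that of TNFAIP3, although the difference between both genes was not tested.

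NFKBIE (chromosome 6, 44258166 to 44265788, minus strand) encodes IκBε, an inhibitor that acts later than IκBα on RELA and REL. It was at 6.03, 6.58 and 6.94 CPM in sgControl PBS and at 11.0, 9.03 and 7.98 CPM in sgControl SCF. The sgEGR1 libraries stood at 9.28, 6.56 and 7.26 CPM after PBS and at 9.70, 7.63 and 8.74 CPM after SCF. The groups were separate in sgControl cells and overlapped in sgEGR1 cells, where replicate 1 was high already after PBS. The log2 fold change by edgeR was 0.52 ± 0.156 in sgControl cells (95% interval 0.18 to 0.86; adjusted p = 0.116), 0.18 ± 0.155 in sgEGR1 cells (-0.16 to 0.52; 0.680) and 0.35 ± 0.110 on average (0.11 to 0.59; 0.0743). Leaving out replicate 1 of sgEGR1 PBS turned the average into a call (0.43, adjusted p = 0.0263), as did a term for replicate 1 (0.34, adjusted p = 0.0156) and DESeq2 (0.35, adjusted p = 0.0423).

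BCL3 (chromosome 19, 44747705 to 44760044, plus strand) encodes a nuclear IκB protein that joins dimers of the p50 and p52 subunits on DNA. It was at 7.62, 5.12 and 4.65 CPM in sgControl PBS and at 9.32, 6.77 and 5.66 CPM in sgControl SCF. In sgEGR1 cells it was at 8.77, 6.26 and 6.70 CPM after PBS and at 11.4, 9.61 and 7.81 CPM after SCF. Replicate 1 was the highest library of every group, and SCF and PBS libraries overlapped in both genotypes. The log2 fold change by edgeR was 0.32 ± 0.233 (adjusted p = 0.625), 0.41 ± 0.230 (0.458) and 0.36 ± 0.164 (0.212) in sgControl cells, in sgEGR1 cells and on average. With a term for replicate 1, nearly the same average (0.37) had an adjusted p of 0.00640. With replicates 2 and 3 only it was 0.39 (adjusted p = 0.0433), and with the replicate block BCL3 was also called in sgEGR1 cells (0.40, adjusted p = 0.0378). The microRNA gene MIR8085 overlaps an exon of BCL3 on the same strand.

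NFKBIZ (chromosome 3, 101827991 to 101861022, plus strand), which encodes the inducible nuclear protein IκBζ, was the least abundant member, at 44 to 78 counts in a library. It was at 1.66, 1.85 and 1.98 CPM in sgControl PBS and at 1.81, 2.30 and 2.26 CPM in sgControl SCF. With sgEGR1 it was at 2.09, 2.24 and 1.81 CPM after PBS and at 1.52, 2.70 and 2.09 CPM after SCF. The groups overlapped in both genotypes, and the average log2 fold change was 0.13 ± 0.151 (95% interval -0.20 to 0.46; edgeR adjusted p = 0.689). An exon of NFKBIZ overlaps NXPE3 on the same strand, so that its counts are uncertain. The 5 inhibitors and nuclear IκB proteins had a median log2 fold change of 0.32 in sgControl cells and 0.27 in sgEGR1 cells, where the medians of all genes were -0.00600 and -0.000485.

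**Figure D2:**
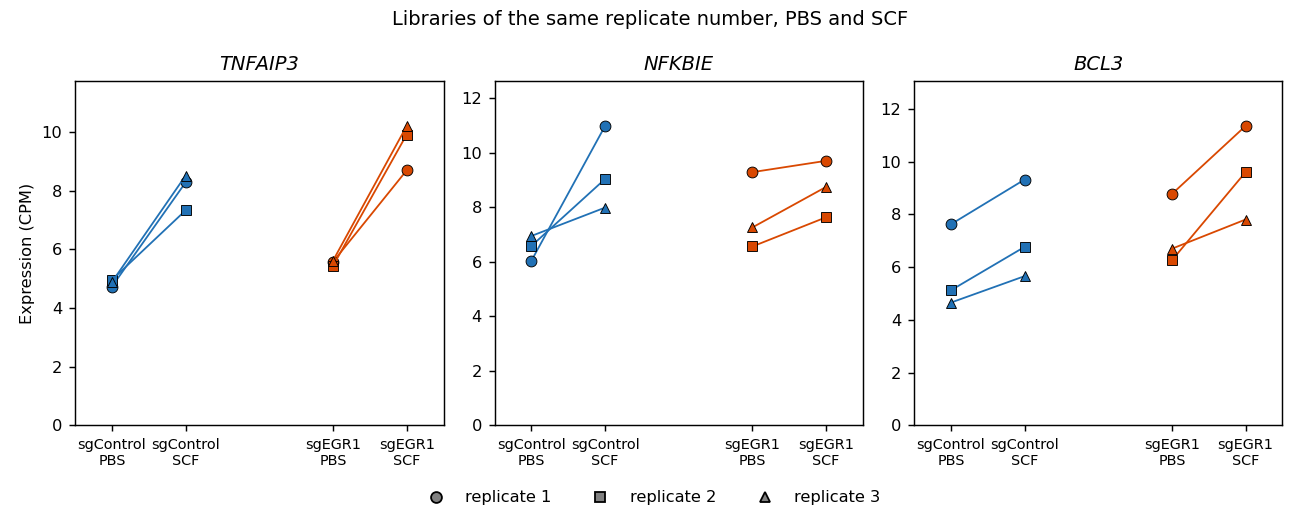
Expression (CPM, linear axis from 0) of TNFAIP3, NFKBIE and BCL3 in PBS and SCF libraries, with lines joining libraries of the same replicate number within sgControl (blue) and sgEGR1 (orange) cells. The lines identify libraries, whose numbers did not pair them between treatments, and in BCL3 the replicate 1 line of each genotype lies above the other lines of that genotype.

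None of the Rel subunits was called for SCF by edgeR without a replicate term, which does not show that their levels were unchanged. RELA (chromosome 11, 65653599 to 65663090, minus strand) was at 70.0, 67.5 and 66.2 CPM in sgControl PBS and at 78.5, 75.2 and 71.3 CPM in sgControl SCF. In sgEGR1 cells it was at 70.2, 65.8 and 72.3 CPM after PBS and at 70.8, 75.6 and 72.1 CPM after SCF. The groups were separate in sgControl cells and overlapped in sgEGR1 cells. The average log2 fold change was 0.11 ± 0.0365 (95% interval 0.03 to 0.19; edgeR adjusted p = 0.1), which a term for replicate 1 brought to an adjusted p of 0.0427. RELA overlaps the divergent transcript RELA-DT on the opposite strand.

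NFKB1 (chromosome 4, 102501330 to 102617302, plus strand), the source of p105 and its product p50, was at 39.8, 41.6 and 40.8 CPM in sgControl PBS and at 43.2, 44.8 and 40.2 CPM in sgControl SCF. Cells with sgEGR1 had 37.9, 39.8 and 39.7 CPM after PBS and 37.0, 40.4 and 42.0 CPM after SCF. The libraries of the treatments overlapped in both genotypes, and the average log2 fold change was 0.05 ± 0.0422 (-0.05 to 0.14; edgeR adjusted p = 0.595). NFKB2 (chromosome 10, 102394110 to 102402524, plus strand), the source of p100 and p52 in the non-canonical pathway, ranged from 15.3 to 18.3 CPM in sgControl cells and from 16.9 to 21.0 CPM in sgEGR1 cells. Its average log2 fold change was -0.02 ± 0.0630 (-0.15 to 0.12; adjusted p = 0.923).

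REL (chromosome 2, 60881491 to 60931612, plus strand) encodes c-Rel, the subunit best known from lymphocytes. It was at 32.1, 28.4 and 32.8 CPM in sgControl PBS, at 27.4, 32.3 and 31.1 CPM in sgControl SCF, at 30.7, 32.2 and 31.7 CPM in sgEGR1 PBS and at 26.6, 30.4 and 30.7 CPM in sgEGR1 SCF. The sgEGR1 SCF libraries lay below the sgEGR1 PBS libraries by a narrow margin, and the sgControl groups overlapped. The average log2 fold change was -0.08 ± 0.0571 (-0.20 to 0.05; edgeR adjusted p = 0.498). RELB (chromosome 19, 45001461 to 45038192, plus strand), the partner of p52, had the widest spread of the subunits, from 2.40 to 5.10 CPM, and an average log2 fold change of 0.04 ± 0.190 (-0.38 to 0.45; adjusted p = 0.95). An exon of REL overlaps an unnamed gene on the same strand.

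Libraries that did not overlap between treatments gave 4 members higher after SCF in sgControl cells (TNFAIP3, NFKBIA, NFKBIE and RELA), against 10.4% of all genes, and none lower, against 9.24%. In sgEGR1 cells TNFAIP3 was higher with no overlap, against 11.2% of all genes, and REL was lower, against 10% of all genes. The median log2 fold change of the 10 members was 0.16 in sgControl cells, 0.06 in sgEGR1 cells and 0.12 on average, while the medians of all genes were -0.00600, -0.000485 and -0.00447. At an unadjusted p under 0.05, edgeR gave 3, 1 and 5 of the 10 members, against 14.3%, 15% and 22.7% of all genes. In bulk RNA, more cells with a transcript and more transcript per cell cannot be told apart.

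**Figure D3:**
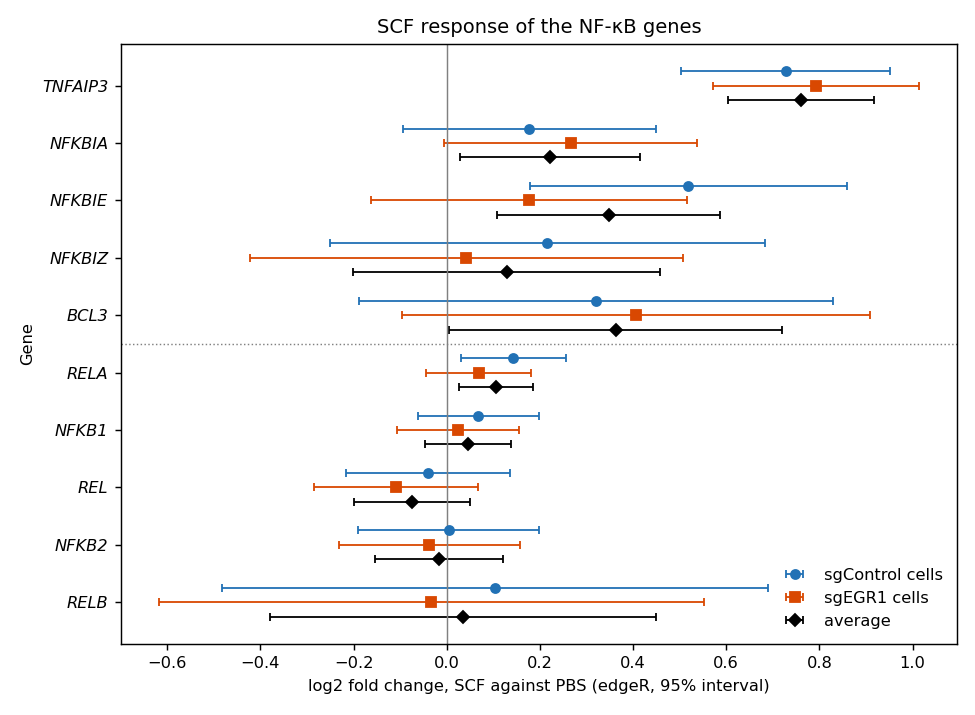
Log2 fold changes of SCF against PBS with unadjusted 95% intervals (edgeR) for the 10 members, in sgControl cells (blue circles), in sgEGR1 cells (orange squares) and averaged over both (black diamonds), with inhibitors and nuclear IκB proteins above the dotted line and Rel subunits below it. The intervals of TNFAIP3 run from 0.50 to 1.01 over both genotypes, while the averages of the Rel subunits lie between -0.08 and 0.11.

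The second question was whether repression near EGR1 altered the members. After PBS, TNFAIP3 was at 4.86 ± 0.117 CPM (SD, n = 3) in sgControl and 5.55 ± 0.0932 CPM in sgEGR1, with no overlap between libraries (against 4.65% of all genes higher without overlap). After SCF it was at 8.05 ± 0.628 and 9.61 ± 0.802 CPM, again with no overlap (3.61% of all genes higher and 3.53% lower without overlap). These differences were 0.19 ± 0.104 and 0.26 ± 0.0995 on the log2 scale and did not pass the edgeR test (adjusted p = 0.999 and 1). NFKB1 after PBS was lower in sgEGR1 with no overlap, at 39.2 ± 1.09 against 40.8 ± 0.892 CPM (4.66% of all genes lower without overlap), and NFKB2 after SCF was higher, at 18.8 ± 0.327 against 17.0 ± 0.733 CPM. Neither passed the test (adjusted p = 0.999 and 1).

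No member was called between genotypes after PBS, after SCF or for the interaction by edgeR, where 0% of all genes were called in each. At an unadjusted p under 0.05, edgeR gave 0, 1 and 0 members and 715, 361 and 306 of all genes (4.62%, 2.33% and 1.98%). DESeq2 called 20, 5 and 4 genes in these comparisons and no member. The interaction, the log2 response with sgEGR1 less the one with sgControl, was 0.07 for TNFAIP3 (95% interval -0.25 to 0.38; edgeR adjusted p = 1). For NFKBIE it was -0.34 (-0.82 to 0.14), for BCL3 0.09 (-0.63 to 0.80) and for NFKBIA 0.09 (-0.30 to 0.47), each with an adjusted p of 1. The intervals do not show that the responses were equal. With the replicate number as a block, 2 genes were called after PBS and 2 after SCF, and no member was among them.

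A comparison averaged over both treatments was added after the data had been seen. In it TNFAIP3 was higher in sgEGR1 than in sgControl cells by 0.22 ± 0.0720 on the log2 scale (95% interval 0.07 to 0.38). Its libraries did not overlap within either treatment, beside 4.65% of all genes higher without overlap after PBS and 3.61% after SCF. The share of genes without overlap in both treatments was not computed. The averaged difference of TNFAIP3 did not pass the edgeR test over all genes (adjusted p = 0.799), and 0% of all genes were called. BCL3 was higher by 0.36 (adjusted p = 0.955) and NFKB2 by 0.16 (adjusted p = 0.898). At an unadjusted p under 0.05 the comparison gave 3 members, TNFAIP3, BCL3 and NFKB2, and 805 of all genes (5.2%), and DESeq2 called 28 genes and no member. Between genotypes the replicate numbers met the rule for pairing given below, and edgeR with the number as a block called 49 genes and no member. Its adjusted p was 0.248 for TNFAIP3, 0.0668 for BCL3 and 0.298 for NFKB2.

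The rest of the pathway was described from 6 lists of 89 genes, of which 58 passed the filter. On average over both genotypes 9 of the 58 rose after SCF, beside 5.58% of all genes called higher, and 1 fell, beside 3.45% called lower. In sgControl cells 4 rose, beside 2.12% of all genes called higher, and in sgEGR1 cells 1, beside 1.81%. These counts depended on single libraries and on the fit, since leaving out 1 library gave 1 to 4 and 0 to 3 genes called. The replicate block gave 6 and 8, of which 5 and 7 rose, beside 1184 and 1235 of all 15492 genes called. On average the block called 19 of the 58, of which 14 rose, beside 2799 of all 15492 genes. The median log2 fold change of the 58 genes was 0.04 on average, against -0.00447 for all genes.

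The ligands were nearly silent, since TNF, LTA, LTB and 3 others of the 8 had no count in any library and none passed the filter. A count of 0 allows up to 0.128 CPM in the shallowest library. Of the 10 receptors 8 were tested and 1 rose on average, beside 5.58% of all genes called higher. TNFRSF1A, a widely expressed TNF receptor, was at 8.95 ± 1.496 and 12.1 ± 1.38 CPM (SD, n = 3) in sgControl PBS and SCF and at 8.45 ± 0.938 and 12.1 ± 0.286 CPM in sgEGR1 PBS and SCF (average log2 fold change 0.48 ± 0.0930, edgeR adjusted p = 0.00703). TLR4 had no count and TLR2 had at most 6 counts in a library.

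Of the 19 adaptors and ubiquitin ligases 18 were tested. On average 3 rose and 1 fell, beside 5.58% and 3.45% of all genes. MYD88, the adaptor of Toll-like and interleukin-1 receptors, rose from 26.8 ± 1.82 to 34.1 ± 1.60 CPM in sgControl cells and from 28.0 ± 1.61 to 34.5 CPM (range 32.9 to 36.8) in sgEGR1 cells (0.32 ± 0.0505, edgeR adjusted p = 0.00184), and was called in each genotype on its own (0.0233 and 0.0468). These single-genotype calls held in 15 and 5 of the 19 alternatives. TRAF5, an adaptor of TNF receptor family members, rose by 0.52 ± 0.109 on average (adjusted p = 0.0103). BCL10, a scaffold between antigen receptors and the IκB kinase, rose by 0.24 ± 0.0527 (0.0150). SHARPIN, a subunit of the linear ubiquitin ligase, fell by 0.15 on the log2 scale, from 99.2 ± 1.25 to 88.8 ± 2.58 CPM in sgControl cells (average adjusted p = 0.0254). The other subunits of that ligase, RNF31 and RBCK1, were present at 55.0 and 51.9 CPM and were not called.

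All 12 genes of the IκB kinase list were tested. MAP3K14, the NIK kinase that starts the non-canonical pathway, was the one called on average, beside 9.03% of all genes. It was at 2.85 ± 0.0328 CPM in sgControl PBS, 4.42 ± 1.28 in sgControl SCF, 2.67 ± 0.297 in sgEGR1 PBS and 4.12 ± 0.389 CPM in sgEGR1 SCF (average 0.63 ± 0.135, edgeR adjusted p = 0.0119). CHUK, IKBKB and IKBKG, which form the kinase complex itself, were present at 35.1, 50.1 and 12.7 CPM and were not called.

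Of the 14 other IκB proteins and brakes 13 were tested and 3 rose on average, beside 5.58% of all genes called higher. ZC3H12A, a ribonuclease that degrades inflammatory transcripts, rose from 7.46 ± 1.63 to 11.2 ± 0.129 CPM in sgControl cells, and was at 8.08 ± 0.805 and 11.1 ± 0.265 CPM in the sgEGR1 groups (average 0.52 ± 0.0944, edgeR adjusted p = 0.00486). NKIRAS2, which binds IκB proteins and slows their degradation, rose by 0.23 ± 0.0390 (0.00292), and N4BP1, a ribonuclease that dampens cytokine production, by 0.21 ± 0.0434 (0.00850). All 3 were also called in sgControl cells, with adjusted p of 0.0416, 0.00872 and 0.0354, and these calls held in 8, 19 and 10 of the 19 alternatives.

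Of 26 classical target genes 16 had no count in any library, among them CXCL1, CCL2, CCL5, IL6 and VCAM1, and 7 passed the filter. On average 1 of these 7 was called, beside 9.03% of all genes. CD83, a surface protein of activated leukocytes, was the one called, at 1.78 ± 0.211 and 2.29 ± 0.230 CPM in sgControl PBS and SCF and at 1.69 ± 0.165 and 2.59 ± 0.339 CPM in the sgEGR1 groups (average 0.49 ± 0.122, edgeR adjusted p = 0.0261). The other 6 tested targets, ICAM1, SOD2, BCL2L1, IRF1, CSF1 and GADD45B, were not called. The average call of CD83 was lost without any 1 of 6 libraries (replicates 2 and 3 of sgControl PBS, 1 and 3 of sgControl SCF, 3 of sgEGR1 PBS and 1 of sgEGR1 SCF; adjusted p up to 0.0672), with replicates 2 and 3 only (0.0761) and with no filter on low counts (0.0517). That of SHARPIN was lost without replicates 2 or 3 of sgControl PBS, 1 or 3 of sgControl SCF, or 2 or 3 of sgEGR1 SCF (up to 0.0685), and with no filter (0.0544). The other 8 named genes were called on average under all 19 alternatives.

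**Figure D4:**
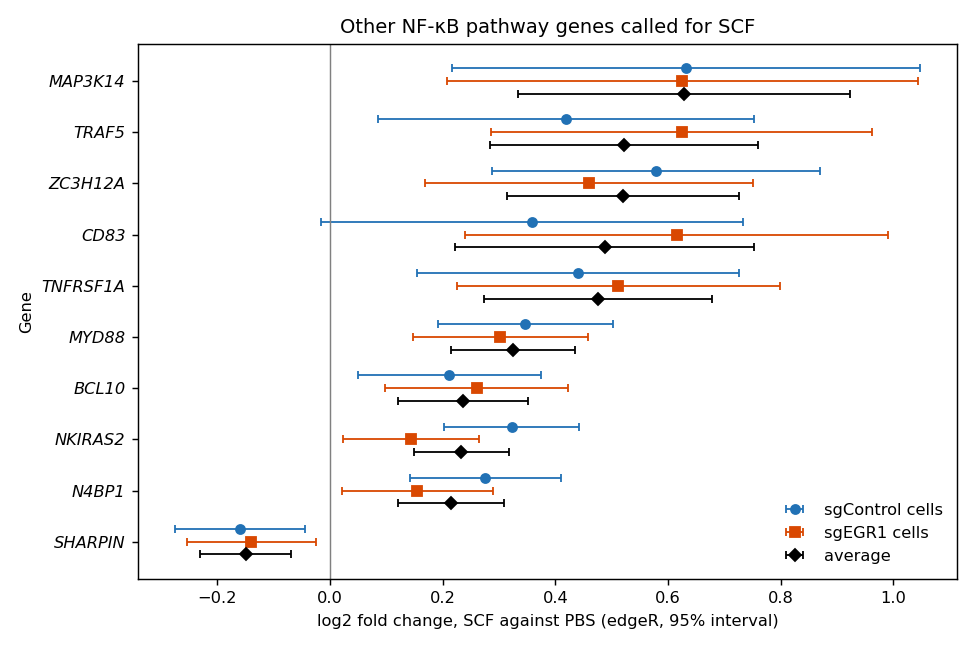
Log2 fold changes of SCF against PBS with unadjusted 95% intervals (edgeR) for the 10 genes of the pathway lists called in any SCF comparison, in sgControl cells (blue circles), in sgEGR1 cells (orange squares) and on average (black diamonds). MAP3K14 has the highest average at 0.63, and SHARPIN, at -0.15, is the one below 0.

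The genes most like a member over the 12 libraries were sought among 9114 genes by Pearson correlation of log2 CPM. For TNFAIP3 these were PRDM4 (r = 0.981), SZRD1 (0.966), BCL7B (0.964) and BTG3 (0.963). NFKBIA was most like THAP7 (0.917), CCDC50 (0.905), SOCS6 (0.893) and RAB23 (0.884). NFKB1 was most like SKA3 (0.887), FSCN1 (0.874), MTFMT (0.868) and ZFP36L1 (0.858). NFKBIZ was most like COASY (0.881), ZNF416 (0.872), EIF3C (0.855) and SFMBT2 (0.848). The 12 points share group, treatment and replicate structure, so these values describe the libraries and no test was applied. Among the members, NFKBIA and NFKBIE had the highest correlation (r = 0.742) and NFKBIA and REL the lowest (r = -0.798).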

How the data were processed

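The authors used HISAT2 to align the reads, in pairs, to hg38, and counted genes with StringTie. The deposited values are its estimated counts, unscaled and with replicates not pooled. The annotation release, and whether strand was used in counting, were not given in the sources used here. Labels and methods differ in the library kit they name. Columns coded SG2 were assigned to sgEGR1, the only other construct in the labels. All values were whole, so rounding for the test changed none.

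edgeR 4.0.16 (R 4.3.3) served for quasi-likelihood tests on one model of all 12 libraries, with a coefficient for each group, TMM scaling and the filterByExpr filter, and Benjamini-Hochberg adjustment over 15492 genes. A gene was called at an adjusted p under 0.05. The average SCF response is the mean of the responses in both genotypes. DESeq2 1.42.0, which the study used, was an alternative, beside RLE scaling, no filter, a replicate block, a term for replicate 1, replicates 2 and 3 only, and leaving out each library. Totals were 23.5 to 32.04 megacounts. Replicates of a group differed beyond counting noise, by a chi-square of 4.46 to 21 per gene, so every library was kept, and the precision of a fold change reflects that spread as well as depth. The code was tested on simulated counts.

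Replicate numbers were taken to pair libraries where all residual correlations between same-numbered libraries exceeded 0.1. They did between genotypes, at 0.232, 0.103 and 0.119 after PBS and 0.269, 0.102 and 0.126 after SCF, but not between treatments. The labels give the numbers with no shared day or batch.

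The members and lists were chosen with earlier results of these data known. All members were named, together with the pathway genes called in any SCF comparison and, for 4 members, the 4 genes most correlated with each. Log2 CPM for correlations used a prior count of 2. The value of 1 marker gene is not reported here.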

Additional observations from a re-analysis of the deposited data

How the results depend on the processing

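TNFAIP3 was called for SCF in both genotypes and on average under all 19 alternatives of each, and no member was called between genotypes or for the interaction under any. The number of members called for SCF, which was 1 in each comparison, was 2 in each genotype with the replicate block and with the term for replicate 1. The added call was NFKBIE in sgControl and BCL3 in sgEGR1 cells. Without sgEGR1 SCF replicate 3 the block gave 2 in sgControl cells. On average over the genotypes it was 3 with the block, 4 with the replicate 1 term, 2 with DESeq2, 2 with replicates 2 and 3 only, 2 with the block and without sgEGR1 SCF replicate 3, and 1 to 2 when single libraries were left out. Between treatments the numbers did not meet the rule for pairing. Residual correlations of replicates 1, 2 and 3 were 0.272, 0.00766 and 0.108 in sgControl and 0.230, 0.0749 and 0.0620 in sgEGR1 cells. Not every library correlated best with its own number.

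Of all genes, 448, 402 and 1399 were called for SCF in sgControl cells, in sgEGR1 cells and on average. DESeq2 called 759 and 773 in the single genotypes. The block called 1184, 1235 and 2799, the replicate 1 term 1289, 1326 and 2868, and the block without sgEGR1 SCF replicate 3 1143, 643 and 2269, while replicates 2 and 3 alone gave 690 in sgEGR1 cells. Leaving out single libraries gave 194 to 448, 176 to 428 and 1032 to 1408. Between genotypes after PBS, where the count was 0, DESeq2 called 20, no filter 1, the block 2, the replicate 1 term 4, replicates 2 and 3 alone 3 and the block without that library 42. After SCF the counts were 5 with DESeq2, 2 with the block, 2 with the replicate 1 term, 2 with replicates 2 and 3 and 30 with the block without that library. The interaction gave 4 with DESeq2, 2 with replicates 2 and 3 and 2 with the block without that library. The genotype difference averaged over treatments gave 28, 1, 49, 58, 12 and 178 with DESeq2, no filter, the block, the replicate 1 term, replicates 2 and 3, and the block without that library. Leaving out single libraries gave 0 to 1 after PBS, 0 to 2 after SCF, 0 to 2 for the interaction and 0 to 22 for that average. Of the 58 tested pathway genes, 4, 1 and 10 were called for SCF in sgControl cells, in sgEGR1 cells and on average, against 6, 8 and 19 with the block and 8, 8 and 18 with the replicate 1 term, 5, 4 and 12 with DESeq2, and 1 to 4, 0 to 3 and 8 to 11 when single libraries were left out.

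Signs turned for values near 0, none of them called. With replicates 2 and 3 only, the SCF response became -0.082 for NFKB2, 0.051 for REL and -0.12 for RELB in sgControl cells, 0.039 for RELB in sgEGR1 cells and -0.039 for RELB on average. The genotype difference became -0.0025 for RELB after PBS, 0.063 for NFKBIZ and 0.0042 for RELA after SCF, and -0.0063 for NFKBIA, -0.017 for NFKBIE and 0.023 for RELA on average. The interaction became 0.0048 for NFKB1 and 0.16 for RELB. With the block and without sgEGR1 SCF replicate 3, the response in sgEGR1 cells became -0.024 for NFKB1 and 0.0023 for NFKB2, and the average response of NFKB2 became 0.0061. Leaving out single libraries turned further signs, with these ranges over the 12 fits. For the SCF response in sgControl cells the sign turned in NFKB2 (-0.063 to 0.062), REL (-0.10 to 0.029) and RELB (-0.15 to 0.32). For that in sgEGR1 cells the sign turned in NFKBIZ (-0.17 to 0.23), NFKB1 (-0.014 to 0.076), NFKB2 (-0.12 to 0.031) and RELB (-0.14 to 0.14). For the average response the sign turned in NFKB2 (-0.057 to 0.018) and RELB (-0.091 to 0.14). For the genotype difference after PBS the sign turned in NFKBIA (-0.062 to 0.054), REL (-0.041 to 0.061) and RELB (-0.075 to 0.36). For that after SCF the sign turned in NFKBIA (-0.056 to 0.19), NFKBIE (-0.20 to 0.026), NFKBIZ (-0.24 to 0.17), REL (-0.12 to 0.015) and RELB (-0.20 to 0.26). For the interaction the sign turned in NFKBIA (-0.044 to 0.20), NFKBIZ (-0.39 to 0.014), BCL3 (-0.16 to 0.31), NFKB1 (-0.084 to 0.0067), NFKB2 (-0.12 to 0.027) and RELB (-0.35 to 0.12). For the genotype difference averaged over treatments the sign turned in NFKBIA (-0.033 to 0.086), NFKBIE (-0.012 to 0.13), NFKBIZ (-0.040 to 0.17), REL (-0.051 to 0.018), RELA (-0.023 to 0.0092) and RELB (-0.034 to 0.20). The cause of these shifts was not tested. Counts were lowest for NFKBIZ, at 44 to 78 in a library.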
